A study of Mus musculus with 10 samples.

Results

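The newly transcribed RNA of normal mouse kidney was compared with the amplified total RNA of normal mouse kidney. The comparison takes 3 of the 10 one-colour Affymetrix arrays of the series, chosen by their titles: 1 array of new RNA and 2 of amplified total RNA. All 22626 probe sets that are not array controls were taken, and 13575 of them were tested, those brighter on average than the 40th percentile of the array. The other 9051 were not tested.

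All mice were C57/BLACK6 males, 7 weeks old and about 20 g in weight. The normal mice had no operation. Each received 34 µCi of tritiated cytidine together with 200 µM 4-thiouridine (s4U) in 1 ml by intraperitoneal injection, with water named as the control, and a second injection 1 h later. The kidneys were removed 2 h after the first injection. The titles do not say whether any of the 3 arrays came from water-injected mice or whether the preparations share a mouse. They call arrays of the same preparation biological replicates, and the single new array is numbered as a first replicate. The contralateral arrays, used here as separate arrays of the same comparison, come from the unclamped kidneys of mice whose other kidney was clamped for 45 min. Those mice were injected 1 h and 2 h after reperfusion and the kidneys were removed at 3 h. That group also has 1 array of new RNA and 2 of amplified total RNA, and each kidney group has 2 arrays of total RNA whose titles name no amplification.

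Thiouridine is taken up by cells and built into RNA while it is being made, and RNA that carries the thiol can be captured and separated from older RNA. The amount of a message in total RNA depends on both its synthesis and its decay, so a message that decays fast is a larger part of new RNA than of total RNA, and a long-lived message is a smaller part. Messages of transcription factors and signalling inhibitors are known to decay fast in many cells, and those of ribosomal proteins and of the respiratory chain to be long-lived. Arrays brought to a common distribution give relative amounts only: a gene higher in new RNA has a larger share of the signal there, which is no absolute rate.

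The 3 arrays differed in quality as well as in preparation. The median deposited intensity was 70.3 on the new array and 41.2 and 43.5 on the amplified arrays. The ratio of the 3' to the 5' control probe set, which rises when transcripts are shortened from the 5' end, was 12.7 for Gapdh on the new array against 5.29 and 4.21 on the amplified arrays, and 12.7 for Actb against 7.92 and 8.29. In unamplified total RNA of normal kidney the Gapdh ratios were 0.938 and 0.972. On the contralateral new array the Gapdh ratio was 68.9 and the median intensity 18.6. The part of these differences in the results below was not tested. The amplified arrays of normal kidney differed from each other by a median of 0.13 per tested probe set on the log2 scale. All 19 measured markers of the proximal tubule, the segment that makes up most of the renal cortex, lay above the median of the tested probe sets on the first amplified array.

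All signals below are normalized log2 values, and a difference is new minus the mean of the amplified arrays on that scale, ± the standard error of the limma fit. The new array has no replicate, so the spread behind each test was taken from the groups with 2 arrays, on the assumption that new RNA varies as they do. A probe set past the adjusted p threshold of 0.05 is called only where the difference was at least 2-fold and the new array lay beyond both amplified arrays. Of the 13575 tested probe sets 5895 passed the threshold (43.4%), 2833 higher and 3062 lower in new RNA. In all 1208 were called higher (8.9%) and 1304 lower (9.61%). The middle 50% of the differences lay between -0.48 and 0.46, with a median of -0.03 and a median standard error of 0.21. For genes, each represented by its brightest tested probe set, 779 of 8300 were called higher (9.39%) and 770 lower (9.28%). A difference of at least 2 on the log2 scale was found for 76 of the probe sets called higher and 115 of those called lower.

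**Figure D1:**
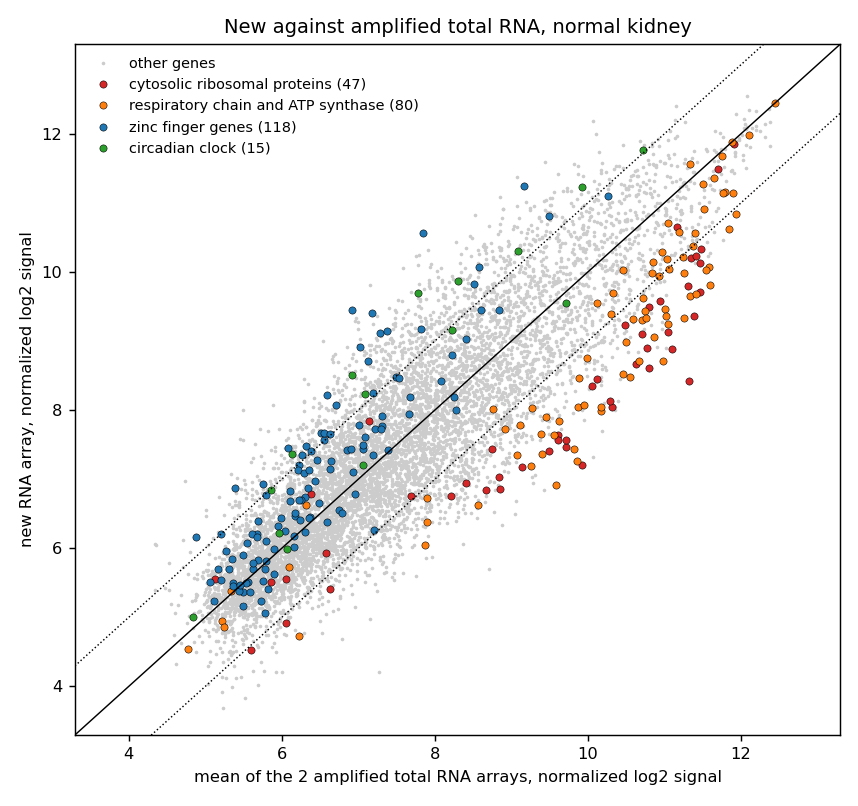
Normalized log2 signal of each of 8300 genes on the new RNA array (vertical axis) against the mean of both amplified total RNA arrays (horizontal axis), normal kidney, with 4 gene groups coloured; the solid line marks equality and the dotted lines a 2-fold difference. Most ribosomal protein and respiratory chain genes lie below the lower dotted line (37 of 47 and 49 of 80 were called lower), and the genes of the clock and zinc finger groups lie mostly above the line of equality.

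Calls changed with the level of the message in unamplified total RNA. Ordered by that level and cut into 5 equal sets, the dimmest 2715 probe sets had 9.39% called higher and 1.44% lower, with a median difference of 0.15. In the brightest set 5.52% were called higher and 27.8% lower, with a median of -0.46. The share called lower rose through the sets between them, from 2.95% to 5.45% and 10.3%, while the share called higher was 8.21%, 10.7% and 10.6%. The level came from arrays outside the comparison. The filter, however, used a mean that includes the new arrays, so a probe set dim in total RNA could pass through a high signal in new RNA, and the offset leaves the dimmest little room to fall. The contrast between the sets is therefore set in part by the filter and the offset, and how large that part is was not tested.

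**Figure D2:**
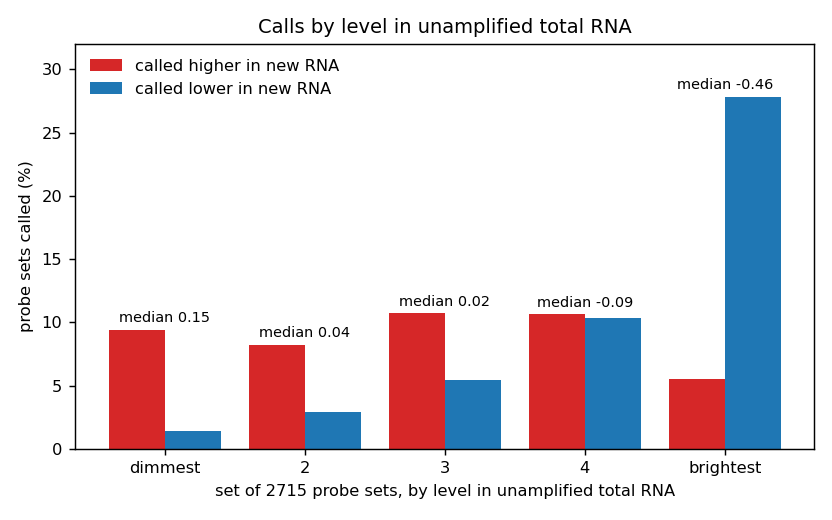
Percent of probe sets called higher (red) and lower (blue) in new RNA in each of 5 sets of 2715 tested probe sets, ordered by level in unamplified total RNA of normal kidney; the text over the bars gives the median log2 difference. The share called lower goes from 1.44% in the dimmest to 27.8% in the brightest set.

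The sequence just upstream of the gene start was looked up because groups of genes moved together. The promoter sequences came from RefSeq (build GRCm38.p6), from 250 bases before to 50 bases after the start. By Entrez number 6757 of the 8300 tested genes matched, and the first promoter listed for each gene was taken. The motif GGGCGG, read on both strands, is the core of the GC box that Sp1-type factors bind. It was present in 73.0% of the 638 matched promoters of genes called higher, in 58.6% of the 631 of genes called lower and in 65.5% of all 6757. The median GC content was 64.7% for genes called higher and 59% for genes called lower, against 61% for all, so the motif and the base composition went together. TATAAA was present in 6.11%, 10.3% and 7.49%, TGACGTCA in 4.23%, 3.33% and 3.18%, and the serum response element in 1.57%, 1.74% and 1.42% of the same sets, each on both strands. GGGCGG was added to the search after the other values had been seen. A match describes the letters only.

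The 120 bases before the start are printed for 3 of the genes with the largest differences in each direction, to show how the GC-rich starts of the first set differ from those of Apom and Hsd11b1. They run 5' to 3' on the strand of the gene, and capitals mark GGGCGG or its reverse complement CCGCCC. Zbtb18 (higher, chr1:177442231-177442350, plus strand, 90.8% GC) holds 9 matches, Zfp148 (higher, chr16:33380655-33380774, plus strand, 70% GC) 0, Ppat (higher, chr5:76951579-76951698, minus strand, 75.8% GC) 1, Bola2 (lower, chr7:126695880-126695999, plus strand, 68.3% GC) 3, Apom (lower, chr17:35131802-35131921, minus strand, 55% GC) 0 and Hsd11b1 (lower, chr1:193242361-193242480, minus strand, 59.2% GC) 0.
Zbtb18: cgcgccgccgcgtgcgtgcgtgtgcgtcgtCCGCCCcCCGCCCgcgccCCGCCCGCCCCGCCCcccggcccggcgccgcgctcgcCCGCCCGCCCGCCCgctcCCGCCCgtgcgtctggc
Zfp148: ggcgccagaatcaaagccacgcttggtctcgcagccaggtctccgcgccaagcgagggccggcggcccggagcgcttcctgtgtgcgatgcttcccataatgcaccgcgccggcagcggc
Ppat: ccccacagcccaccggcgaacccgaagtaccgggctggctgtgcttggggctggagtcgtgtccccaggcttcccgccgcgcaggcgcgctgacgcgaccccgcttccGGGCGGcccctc
Bola2: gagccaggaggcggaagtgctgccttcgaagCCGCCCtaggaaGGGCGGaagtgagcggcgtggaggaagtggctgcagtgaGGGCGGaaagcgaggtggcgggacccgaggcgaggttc
Apom: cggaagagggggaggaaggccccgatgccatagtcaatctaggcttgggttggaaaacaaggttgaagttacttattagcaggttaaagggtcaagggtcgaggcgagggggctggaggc
Hsd11b1: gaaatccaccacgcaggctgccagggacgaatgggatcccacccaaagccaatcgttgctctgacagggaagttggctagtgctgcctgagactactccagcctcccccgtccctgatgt
Bola2 was called lower although its start holds 3 matches, and Zfp148 was called higher with 0, so the letters do not sort single genes.

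Of the 15 genes with the largest higher differences 5 encode transcription factors, picked out after the values were seen: Zbtb18, Zfp148, Klf5, Sox6 and Cebpg. The share of transcription factors among all tested genes was not counted, so the 5 are described as single genes only. Zbtb18, which encodes a zinc finger repressor, had a signal of 10.57 on the new array and of 7.94 and 7.75 on the amplified arrays. Its difference of 2.72 ± 0.24 was the largest of the named genes called higher (adjusted p = 7.24e-06). Unamplified total RNA had 7.10 and 7.29, so the new array lay above all 4 other arrays of normal kidney. Klf5, a Krüppel-like factor of epithelial cells, had 8.01 on the new array against 5.44 and 5.54, a difference of 2.52 ± 0.26 (adjusted p = 2.5e-05). Sox6, a developmental factor, had 9.0 against 6.88 and 6.19, with 0.49 as the SD of the amplified arrays (n = 2), above the 0.07 of Klf5. Cebpg, a partner of the C/EBP factors, had 10.25 against 7.87 and 7.70. Zfp148, a zinc finger factor that binds GC-rich DNA, had 9.45 against 6.84 and 6.99, but its other probe set differed by only -0.05.

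**Figure D3:**
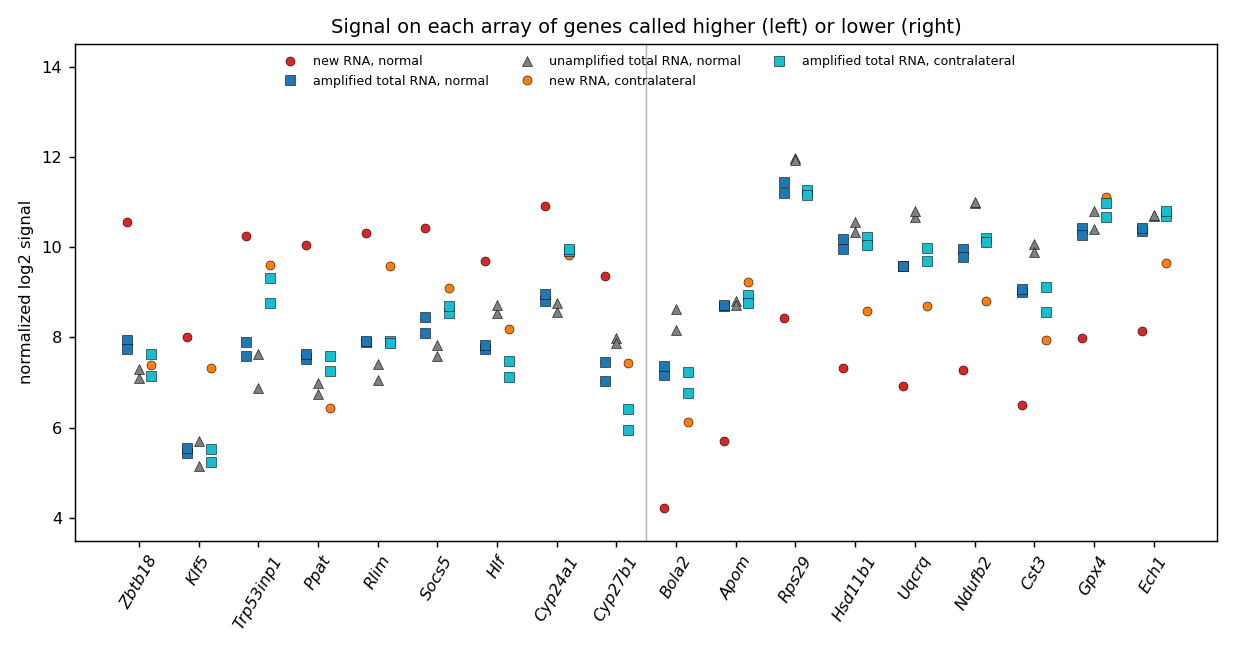
Normalized log2 signal of 18 named genes on every array of new (circles), amplified total (squares) and unamplified total RNA (triangles, normal kidney only), with normal and contralateral arrays side by side. On the left the new array of normal kidney lies above both amplified arrays for each of the 9 genes, on the right below them for each of 9. The call requires this in normal kidney. The contralateral new array lies beyond its own amplified arrays for some of the genes only.

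As a group, 15 of 40 measured tissue and developmental transcription factors were called higher and 0 lower, with a median of 0.83, against 9.39% and 9.28% of all genes and a median over all genes of -0.02. Besides Sox6 they include Nr3c1, the glucocorticoid receptor, with a signal of 9.89 against 7.86 and 7.99 (difference 1.96 ± 0.21, adjusted p = 3.02e-05). Tsc22d3, a glucocorticoid-induced regulator, differed by 1.60 ± 0.40 (adjusted p = 0.00755), and its other probe sets reached down to -0.28. Of the zinc finger genes, taken by name (Zfp, Zbtb, Zkscan and Zscan), 27 of 118 were called higher and 0 lower, with a median of 0.50. Only 35 of the 118 lay above the median of the tested probe sets on the first amplified array. In the dimmest set by level in unamplified total RNA 1.44% of probe sets were called lower. With the offset added before the logarithm raised to the median intensity, 16 of the zinc finger genes were called. Chromatin regulators had 13 of 66 higher and 1 lower (median 0.63), 7 higher with that offset. Dnmt3a, a DNA methyltransferase, differed by 1.72 ± 0.16, Jarid2, a partner of Polycomb repressive complex 2, by 1.67 ± 0.16 and Kat6a, a histone acetyltransferase, by 1.66 ± 0.17. Sin3b, a corepressor scaffold, was the 1 called lower, at -1.02 ± 0.18, and it missed the 2-fold minimum without the first amplified array (-0.82).

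Of the clock genes 8 of 15 were called higher (53.3%, against 9.39% of all genes) and 0 lower. Their median of 1.05 was the highest of the 41 groups. Clock, an activator subunit of the circadian oscillator, had 8.51 on the new array and 7.03 and 6.81 on the amplified arrays. Hlf, a PAR bZIP factor under clock control, had 9.69 against 7.74 and 7.82 (difference 1.91 ± 0.17, adjusted p = 7.98e-06). Rora, a nuclear receptor that activates Bmal1, differed by 1.56 ± 0.21 and Tef, another PAR bZIP factor, by 1.31 ± 0.16. Tef lost its call under median scaling, where its difference was 0.70. The labels used here give no clock time of the injections or of kidney removal, so the phase of the day cannot be compared between arrays.

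The feedback regulators of signalling had 11 of 36 members higher (30.6%, against 9.39% of all genes) and 0 lower. Their median was 0.62, and 7 were higher under median scaling. Socs5, an inhibitor of cytokine and EGF receptor signalling, had 10.43 on the new array against 8.10 and 8.46 (difference 2.15 ± 0.18, adjusted p = 5.52e-06). Dusp6, the phosphatase that switches off ERK, had 10.32 against 8.87 and 8.82, and Spred1, an inhibitor of Ras signalling, 7.72 against 6.25 and 6.27. Noct, a nucleotide phosphatase with a daily rhythm, had 9.31 against 8.02 and 7.88. Each of the 4 lay above both amplified arrays, which the call requires.

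The immediate early factors, whose messages are among the shortest-lived known, had 1 of 15 measured members called higher, which is 6.67% against 9.39% of all genes and so near that share, and 0 lower. The median was 0.11. Klf6 was the 1 called, with 9.60 against 7.77 and 7.84 (difference 1.80 ± 0.19, adjusted p = 2.66e-05). Egr1 had 8.03 against 7.40 and 7.31, a difference of 0.67 ± 0.20 that passed the threshold (adjusted p = 0.0158) without reaching 2-fold. Fos had 5.99 against 5.27 and 5.22, with a difference of 0.75 ± 0.23 (adjusted p = 0.0218). Jun had 7.04 against 7.13 and 7.05, slightly below both (adjusted p = 0.867). The other 11 lay between -0.48 (Klf2) and 0.45 (Klf10). With no filter on low values 3 members were called higher.

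Cytokines, chemokines and adhesion molecules had 3 of 22 members higher (13.6%, against 9.39% of all genes) and 0 lower, with a median of 0.01. They were Hbegf, an EGF receptor ligand (1.82 ± 0.17), Il15 (1.12 ± 0.25) and the neutrophil chemokine Cxcl1 (1.03 ± 0.35, adjusted p = 0.0344). Cxcl1 had only 5.73 on the new array against 4.91 and 4.51. Cxcl1 and Il15 lost their calls without the second amplified array, where Cxcl1 differed by 0.82 and Il15 by 0.97.

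Regulators of protein and RNA turnover were mostly higher where they were called. Of all genes 9.39% were called higher and 9.28% lower. Of the ubiquitin ligases and F-box genes 25 of 115 were higher (21.7%) and 1 lower (median 0.34). Klhl42, an adaptor of the Cullin 3 ligase, had 9.81 against 7.02 and 7.29 (2.65 ± 0.43, adjusted p = 0.000504). Ube3a, the ligase altered in Angelman syndrome, differed by 1.93 ± 0.16. Rlim, a RING ligase outside that list, had 10.31 against 7.90 and 7.92, and its other probe sets differed by as little as 0.46. The RNA decay factors had 7 of 39 higher (17.9%) and 0 lower (median 0.41). Pum2, a 3' UTR-binding repressor, differed by 1.87 ± 0.12 and Cnot6l, a deadenylase subunit, by 1.30 ± 0.21. Splicing factors and nuclear RNA-binding proteins had 16 of 114 higher (14.0%) and 3 lower (2.63%). Their median was 0.31, and 0.15 under median scaling. Rbm26 differed by 2.05 ± 0.19 and Srsf10, a splicing repressor, by 1.64 ± 0.20, with other probe sets of Srsf10 down to -0.21. Sf3b5, a small subunit of the U2 particle, was lower by -1.35 ± 0.21.

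The list of RNA polymerase II, its general factors and Mediator had 5 of 58 higher (8.62%) and 4 lower (6.90%), with a median of 0.07. Both shares lie near or below those of all genes, 9.39% higher and 9.28% lower. Taf1a, among the 5, is a factor of RNA polymerase I. The higher count was 2 and the lower count 2 with the larger offset. Gtf2a1, the large subunit of TFIIA, differed by 1.56 ± 0.31 (adjusted p = 0.0017). Polr2f, a small polymerase subunit shared by all 3 nuclear polymerases, had 6.32 against 7.84 and 7.86, and Taf10, a small TFIID subunit, 6.93 against 8.36 and 8.36. For Polr2f and Taf10 the other probe set was near 0, at -0.03 and -0.06.

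The other genes with the largest higher differences belong to no single pathway. Ppat, the first enzyme of purine synthesis, had 10.05 on the new array against 7.53 and 7.64 (2.47 ± 0.19, adjusted p = 3.06e-06). Ampd2, an AMP deaminase, had 9.27 against 7.02 and 6.97. Trp53inp1, a p53-induced stress protein, had 10.24 against 7.60 and 7.91. Ppp1r15b, the constitutive partner of the phosphatase that acts on eIF2α, had 11.37 against 8.96 and 9.19. Nupl1, a nuclear pore protein, differed by 2.37 ± 0.19, Cpeb3, a regulator of poly(A) tails, by 2.32 ± 0.14, Rasl11b, a Ras-like GTPase, by 2.30 ± 0.16 and Gna13, a G protein alpha subunit, by 2.33 ± 0.15. Each new value lay above both amplified arrays, which the call requires. Other probe sets gave smaller differences for Ppat (0.82), Ampd2 (0.51), Cebpg (0.39) and Klf5 (0.91). The 6 probe sets of Gna13 ran from -0.66 to 2.40, so its value depended on the probe set. Gna13 also had 8.73 and 8.64 in unamplified total RNA, well above its amplified arrays and nearer to the 9.29 of new RNA.

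A pair of kidney enzymes of vitamin D metabolism were both higher. Cyp27b1, the hydroxylase that makes active vitamin D, had 9.37 on the new array against 7.46 and 7.03 (2.12 ± 0.27, adjusted p = 8.41e-05). Cyp24a1, the hydroxylase that inactivates it, had 10.91 against 8.82 and 8.96 (2.03 ± 0.13, adjusted p = 1.35e-06), and its other probe set differed by 0.65. They were the only 2 of 29 cytochrome P450 genes called higher (6.90%, against 9.39% of all genes). In that list 5 were lower (17.2%, against 9.28%), among them Cyp7b1, an oxysterol hydroxylase, at -1.59 ± 0.32. G6pc, the glucose-6-phosphatase of gluconeogenesis, was the 1 of 37 genes of glycolysis, gluconeogenesis and the citrate cycle called higher. It had 11.84 against 10.32 and 10.59, and its difference was 0.71 under median scaling in place of 1.39, which ended the call. In that group 5 were called lower (13.5%), 11 under median scaling and 2 with the larger offset.

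Most cytosolic ribosomal protein genes were lower in new RNA, and other genes of protein synthesis were mostly not called. Of the cytosolic ribosomal proteins 37 of 47 were called lower and 0 higher, with a median of -1.50. Rps29 had 8.42 on the new array and 11.20 and 11.44 on the amplified arrays, a difference of -2.90 ± 0.12 (adjusted p = 3.94e-07). Rpl37a had 7.21 against 9.96 and 9.88, and Rpl19 8.04 against 10.30 and 10.33. The 3 probe sets of Rpl37a ran from -2.71 to -0.65. In unamplified total RNA these 3 were higher still, from 11.03 to 11.97. Rps24 had probe sets called in both directions: 4 of its 5 were lower, down to -2.51, and 1 was higher, at 1.44. Eef1b2, an exchange factor of translation elongation, had 8.04 against 10.38 and 10.33 (-2.31 ± 0.18). The translation factors had 6 of 48 lower and 2 higher, with a median of -0.29. Eif1a, an initiation factor, was among the higher at 1.49 ± 0.17, and 4 were higher without the second amplified array. Of the aminoacyl-tRNA synthetases 2 of 21 were lower (9.52%, against 9.28% of all genes) and 0 higher.

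Genes of the respiratory chain and of the mitochondrial ribosome had many members called lower. Of the respiratory chain and ATP synthase subunits 49 of 80 were lower and 0 higher, with a median of -1.25. Uqcrq, of complex III, had 6.92 against 9.59 and 9.58 (-2.67 ± 0.14), Ndufb2, of complex I, 7.27 against 9.95 and 9.78, and Uqcr11, of complex III, 7.44 against 9.76 and 9.87. Ndufa4, assigned to complex I or IV, had 8.72 against 10.95 and 11.02. The other probe set of Uqcrq differed by -0.65, less than its brighter one, and that of Ndufb2 by -2.62. Mitochondrial ribosomal proteins had 29 of 74 lower and 0 higher (median -0.88), with Mrps28 at -2.02 ± 0.16 and Mrpl42 at -1.85 ± 0.18. Timm13, an import chaperone, had 6.68 against 9.05 and 9.08, and Micos13, a subunit of the complex that shapes cristae, 7.70 against 10.23 and 10.13.

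The proteasome had 15 of 45 members lower (33.3%, against 9.28% of all genes) and 0 higher, with a median of -0.62. Of the 45, 35 lay above the median of the tested probe sets on the first amplified array. In the brightest set by level in unamplified total RNA 27.8% of probe sets were called lower. The core subunits Psmb3 and Psmb6 differed by -1.70 ± 0.17 and -1.66 ± 0.13. Psmb3 had 8.07 and 8.26 in unamplified total RNA, close to the 8.41 of new RNA and far from the 10.10 and 10.12 of amplified RNA, so its difference was not seen against unamplified RNA. Psmb6, at 9.73 and 9.91 in unamplified RNA, was lower in new RNA against both.

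Several lists of metabolic and detoxifying genes had members called lower. Fatty acid and amino acid breakdown had 12 of 41 lower (29.3%, against 9.28% of all genes) and 0 higher (median -0.77), and 19 lower under median scaling. All 41 lay above the median of the tested probe sets on the first amplified array. Ech1, of fatty acid oxidation, had 8.14 against 10.36 and 10.43. The glutathione S-transferases had 10 of 18 lower and 0 higher (median -1.03), with Gstm5 at -1.91 ± 0.12. Of the metallothioneins and NRF2 targets 2 of 13 were lower, among them Taldo1, an enzyme of the pentose phosphate pathway, at -2.24 ± 0.15. Gpx4, the peroxidase that protects membrane lipids, had 8.0 against 10.43 and 10.28, and Ddt, a tautomerase related to MIF, 6.95 against 9.21 and 9.36. Hsd11b1, which regenerates active glucocorticoid, had 7.32 on the new array against 10.18 and 9.95 (-2.74 ± 0.15, adjusted p = 5.31e-07). Of 196 solute carriers 12 were higher (6.12%) and 14 lower (7.14%), with a median of -0.02. Both shares lie below those of all genes, 9.39% and 9.28%. The thiamine transporter Slc19a2 was among the highest at 2.05 ± 0.17 and the organic anion transporter Slc22a19 the lowest at -2.11 ± 0.13.

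The largest lower difference was that of Bola2, an iron-sulfur cluster protein. It had 4.22 on the new array against 7.18 and 7.37, a difference of -3.06 ± 0.25 (adjusted p = 4.1e-06), while its 5 probe sets ran from -3.06 to -0.06. Apom, the lipoprotein that carries sphingosine 1-phosphate, had 5.70 against 8.70 and 8.72 (-3.01 ± 0.14, adjusted p = 3.94e-07), and its other probe set differed by -1.88. Cst3, which encodes cystatin C, had 6.50 against 9.01 and 9.08. Ssr4, a subunit of the translocon-associated complex, had 6.33 against 8.91 and 8.84, but its other probe set differed by 0.44. The predicted gene Gm12338 had 6.84 against 9.39 and 9.46. Each of these lay below both amplified arrays, which the call requires.

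The list of histone genes had 3 of 7 members lower and 0 higher, with a median of -0.96. Of the 3, H13 is a histocompatibility gene and no histone, so the counts and the median are not of histones alone. H2ac19 was lowest, at -2.25 ± 0.17, and H1f2 highest, at 0.58, a difference that passed the threshold without reaching 2-fold. The chaperones of heat shock and the endoplasmic reticulum had 4 of 35 higher and 1 lower (median -0.17), with Dnajb9 at 1.73 ± 0.18 and Pdia3 at -1.07 ± 0.18. The lower count of the chaperones was 3 without the first amplified array. Interferon-stimulated genes had 2 of 18 higher, among them Ifit3 at 1.25 ± 0.15, and 2 lower, among them Bst2 at -1.42 ± 0.21, with a median of -0.33. Their lower count was 5 under median scaling and 0 with the larger offset. The cell cycle genes had 2 of 34 higher and 1 lower, the cyclin-dependent kinase inhibitor Cdkn1c at -1.41 ± 0.20. The cholesterol genes had 0 of 18 called in either direction (median 0.04), the vacuolar ATPase 2 of 19 lower, the cytoskeleton 2 of 34 lower (5.88%) and the long non-coding RNAs 1 of 13 higher (7.69%). The shares of these last 3 lie near or below those of all genes, 9.28% lower and 9.39% higher. So do those of the chaperones (11.4% higher and 2.86% lower), the interferon-stimulated genes (11.1% each) and the cell cycle genes (5.88% and 2.94%).

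**Figure D4:**
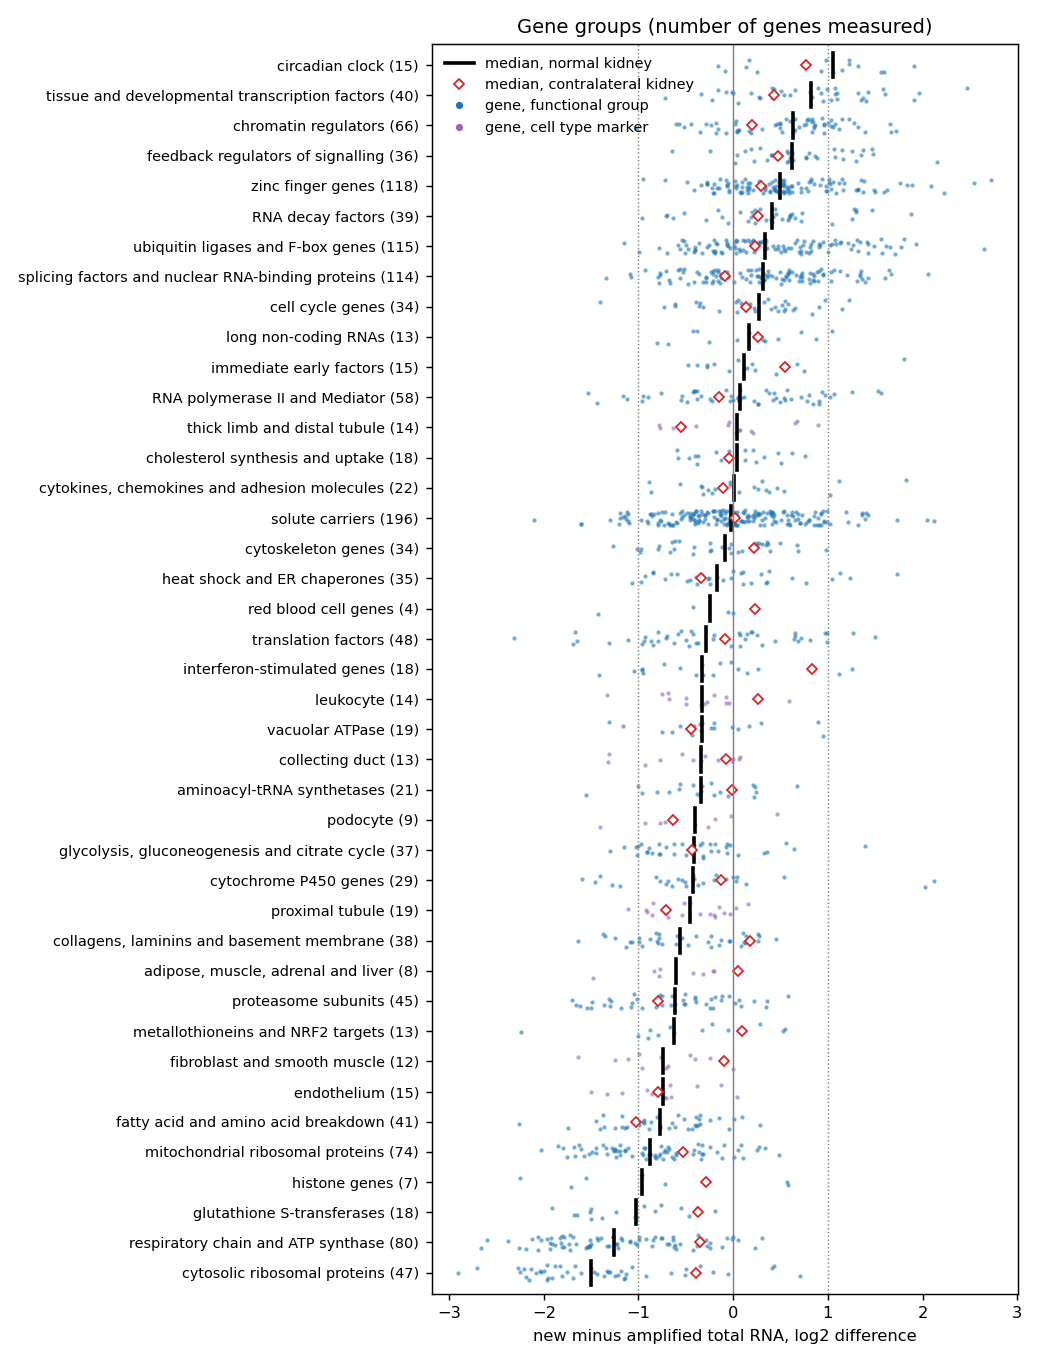
Log2 difference, new minus amplified total RNA of normal kidney, of every measured gene in 41 groups (33 functional groups in blue, 8 cell type marker lists in purple); the black bar is the group median and the open red diamond the median of the same genes in contralateral kidney. Medians run from -1.50 for cytosolic ribosomal proteins to 1.05 for clock genes, and the contralateral median lies nearer to 0 at both of these ends.

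Marker lists of kidney cell types had no member called higher. The shares called lower, against 9.28% of all genes, ran from 0% for thick limb and distal tubule to 20% for endothelium and 25% for fibroblast and smooth muscle. The proximal tubule list had 1 of 19 lower (Slc22a7, an organic anion transporter, at -1.11 ± 0.13) and a median of -0.46, with 6 lower under median scaling. The thick limb and distal tubule list had 0 of 14 called, the collecting duct list 2 of 13 lower, with the water channel Aqp2 at -1.33 ± 0.24, and the podocyte list 1 of 9. Endothelium had 3 of 15 lower, with the angiopoietin receptor Tek at -1.50 ± 0.18, fibroblast and smooth muscle 3 of 12, with Col3a1 at -1.63 ± 0.17, leukocytes 1 of 14, the complement gene C1qa at -1.33 ± 0.18, and the list of adipose, muscle, adrenal and liver genes 1 of 8. Collagens, laminins and basement membrane genes had 7 of 38 lower (median -0.57), and 4 without the first amplified array. The summed signal of the proximal tubule markers, brought back to a linear scale without the offset, was 34540 on the new array and 45290 and 43712 on the amplified arrays. The sum of the leukocyte markers was 2068 against 2649 and 2672, and that of the endothelial markers 1916 against 3332 and 3337. These sums compare preparations of RNA from normal kidney, so they give no number of cells of a type. Message lifetime and cell composition cannot be told apart in them. Some lists overlap: Col3a1 and Col1a1 were called lower in both the fibroblast and the collagen list, and Cdkn1c in both the podocyte and the cell cycle list. The part of cell composition in the other results was not tested.

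Of the red blood cell genes, where new synthesis ends as the cells mature, 1 of 4 measured was called lower. Alas2, the erythroid heme synthesis enzyme, had 5.89 on the new array against 7.35 and 7.29 (-1.43 ± 0.25, adjusted p = 0.000812). Hbb-b2, a beta globin, had 4.63 against 5.20 and 4.17, so the new array lay between the amplified arrays. Slc4a1, the anion exchanger of red cells and intercalated cells, had 7.33 against 7.65 and 7.86 (adjusted p = 0.099). Bpgm, of red cell glycolysis, had 8.41 on the new array, within 0.22, its standard error, of the amplified mean.

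The new array was also set beside the unamplified total RNA, which shares that array with the main comparison and so gives no independent support. The median of the cytosolic ribosomal proteins was -2.19 against unamplified and -1.50 against amplified RNA, that of the respiratory chain -1.68 and -1.25, and that of the mitochondrial ribosomal proteins -1.45 and -0.88. Clock genes had 1.10 and 1.05, and tissue transcription factors 0.97 and 0.83. The median of splicing factors was 0.84 and 0.31, and that of proteasome subunits -0.47 and -0.62. The amplified arrays themselves differed from unamplified RNA by a median of -0.55 for cytosolic ribosomal proteins and 0.50 for splicing factors. Other groups had shifts between amplified and unamplified RNA opposite in sign to the difference of new from amplified RNA, such as fatty acid and amino acid breakdown (0.29 and -0.77), the aminoacyl-tRNA synthetases (0.51 and -0.34), the chaperones (0.55 and -0.17) and the vacuolar ATPase (0.38 and -0.33). The part of amplification in these differences was not tested.

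The 3 contralateral arrays repeat the comparison on other kidneys, with the 1 new array whose Gapdh ratio is given above. There, 1501 tested probe sets were at least 2-fold higher in new RNA (11.1%) and 2161 at least 2-fold lower (15.9%), each beyond both amplified arrays. Of the 1208 called higher in normal kidney 261 were among the former, which is 21.6% (exact 95% interval 19.3 to 24.0, counting error only) and 17.4% of the 1501. Of the 1304 called lower 504 were among the latter, 38.7% (36.0 to 41.4) and 23.3% of the 2161. A 2-fold difference in the opposite direction was found for 76 of those called higher and 35 of those called lower. The same sign was found for 65.7% of those called higher and 75.8% of those called lower, against 49.0% and 51.0% of all tested probe sets. Across the 13575 probe sets, which are not independent and were measured in the same labelling scheme, the differences of both kidney groups correlated at r = 0.31.

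Some genes had like values in both groups. Klf5 had 7.32 on the contralateral new array against 5.24 and 5.52, Gna13 7.93 against 5.65 and 5.55, and Ampd2 10.16 against 7.70 and 8.09. Ssr4 had 6.43 against 8.75 and 8.98, Slc22a19 8.06 against 10.41 and 10.57, and Tek 6.87 against 8.65 and 8.26. For these 6 genes the new array lay beyond both amplified arrays in both kidney groups and in the same direction.

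Other genes did not repeat. Zbtb18 had 7.39 on the contralateral new array, between amplified values of 7.64 and 7.14. Ppat had 6.44 against 7.58 and 7.25, and Dusp6 6.32 against 9.10 and 8.76, both below the amplified arrays. Apom had 9.22 against 8.93 and 8.77, and Rps29 11.23 against 11.26 and 11.15. Group medians were nearer to 0 there: -0.39 for cytosolic ribosomal proteins, -0.35 for the respiratory chain, 0.43 for tissue transcription factors and 0.77 for clock genes. Proteasome subunits (-0.79) and fatty acid and amino acid breakdown (-1.02) had lower medians there than in normal kidney (-0.62 and -0.77), and interferon-stimulated genes had a median of 0.83 against -0.33. The test of the difference between kidney groups, which rests on 2 new arrays without replicates, passed for 5669 of 13575 probe sets (41.8%). The time from injection to kidney removal was the same in both groups. Kidney group, operation and the 3'/5' ratio of the new array cannot be told apart.

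**Figure D5:**
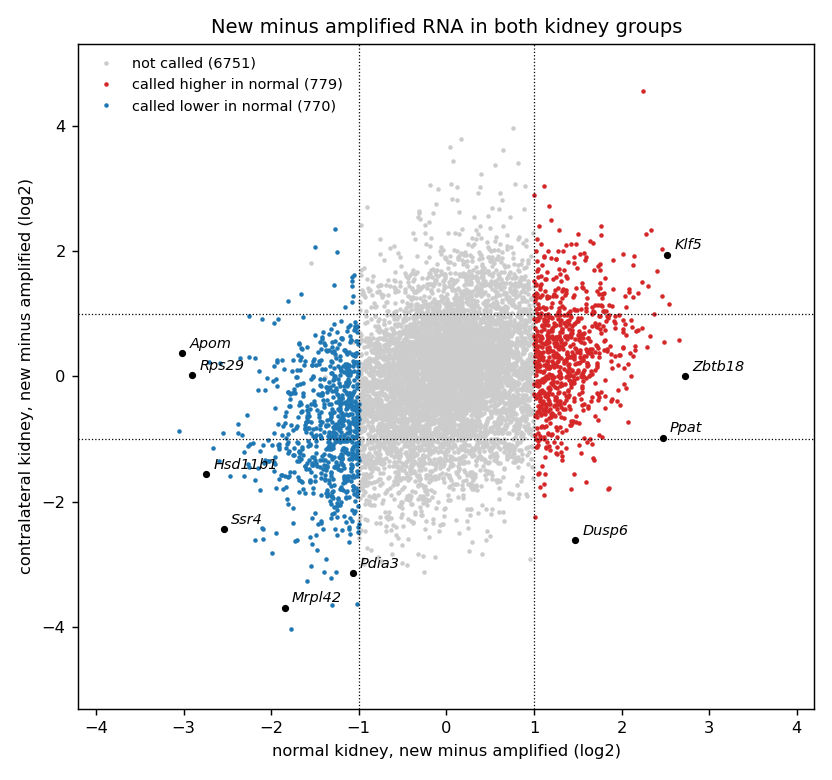
Log2 difference of new minus amplified total RNA of 8300 genes in contralateral kidney (vertical axis) against normal kidney (horizontal axis), with genes called higher (779) or lower (770) in normal kidney coloured and dotted lines at a 2-fold difference. Klf5 and Ssr4 lie far from 0 on both axes and in the same direction, while Zbtb18 and Rps29 lie near 0 on the contralateral axis.

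Probe sets of the same gene did not always give the same value. Of 2861 genes with 2 or more tested probe sets, the median range of the difference within a gene was 0.51, and 579 (20.2%) had a range over 1. Of the 922 with at least 1 called probe set, 76 had every set called higher, 101 every set called lower, and 6 had sets called in both directions: Gosr2, Reep3, Rps24, Sar1a, Spast and Vps41. For Gosr2, which works in transport through the Golgi, the brighter set had 9.93 on the new array against 8.41 and 8.72 and the other 3.91 against 5.34 and 5.44. The call also varied with the kind of probe set. Those whose name ends in _x_at, which can hybridise with related transcripts, were called lower in 16.0% and higher in 5.77%, those ending in _a_at, which read several transcripts of a gene, in 14.0% and 6.01%, and those with no such letter in 7.55% and 9.93%. Sets ending in _s_at, which read transcripts of several genes or variants, were called lower in 8.89% and higher in 10.9%. Ribosomal protein genes such as Rps29 and Rpl37a were read by _x_at sets and have near-identical pseudogene copies, so their values are uncertain as to the copy. The position of each probe set along its transcript and the lengths of the transcripts were not analysed here.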

How the data were processed

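RNA of mouse kidney was measured on 10 one-colour arrays, and each probe set has 1 linear intensity per array in the table the authors deposited. RNeasy columns, linear amplification and biotin labelling by a T7-based strategy are named in the protocols, per the labels. How probes were summarised and scaled is not given in the sources used here.

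Values were transformed as log2(intensity + 11.8), the 25th percentile of all values, and quantile normalized over the 10 arrays, so the change of a dim gene is understated. The array has 22690 probe sets, of which 64 are controls, and the filter at the 40th percentile left 13575. Symbols were read from the platform annotation: 20380 probe sets have 1 symbol, 691 several and 1555 are not listed. A RefSeq table, matched by Entrez number and used for names only, changed 0 of them. Of the tested probe sets 12502 have 1 symbol and cover 8300 genes.

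Differences were tested with limma 3.58.1 in R 4.3.3 (lmFit with 6 group means over all 10 arrays, 4 residual degrees of freedom, eBayes with trend) and Benjamini-Hochberg adjustment over all tested probe sets. P-values measure the spread between these arrays only, whose number limits the precision. The fit was tested on simulated data. Gene groups are described by counts and medians without a test. The groups overlap, so a gene can count in several, as Hlf does in the clock and the tissue factor groups.

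The gene groups and the comparison were chosen with earlier results of these data known. Named genes were the 15 largest called differences in each direction and up to 4 called members per group and direction, of which the text gives a part, and any measured member of a group with 12 or fewer members, of the immediate early factors and of the red blood cell genes. Gosr2, Rps24 and the other genes called both ways were named after their values were seen, and the summary by kind of probe set was also added then. Alternatives were other normalization, offset, filter, variance prior, arrays, a replicate block, another choice of probe set and leaving out each array.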

Additional observations from a re-analysis of the deposited data

Results flagged for a closer look

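The difference of new minus amplified RNA was tested between normal and contralateral kidney for the 97 genes whose values the text gives, with the limma interaction contrast adjusted over all tested probe sets. It passed for 71 of them, and for 63 of these the contralateral difference was the smaller in size. Most of the 97 genes were chosen for their large differences in normal kidney, which enter the contrast. The number that passed, against 41.8% of all tested probe sets, and the smaller contralateral values follow in part from that choice. For genes chosen in this way a smaller contralateral value cannot show whether the effect was weaker there. In 20 of the 71 the differences of the kidney groups had opposite signs. Each kidney group has 1 new array and the contralateral one had a Gapdh 3'/5' ratio of 68.9 against 12.7. The part of that ratio was not tested. A value below is the normal minus the contralateral difference on the log2 scale.

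Where the difference of normal kidney was above 0 the value was 4.09 for Dusp6, 3.45 for Ppat, 2.72 for Zbtb18, 2.65 for Tsc22d3, 2.24 for Rbm26, 2.14 for Cyp24a1 and 2.09 for Gtf2a1. Next came 2.06 for Klhl42, 1.93 for Trp53inp1, 1.92 for Il15, 1.82 for Ppp1r15b, 1.77 for Nr3c1, 1.67 for Noct and 1.67 for Socs5. Values were 1.67 for Cpeb3, 1.63 for Srsf10, 1.39 for Pum2, 1.39 for Zfp148, 1.38 for Nupl1, 1.37 for Klf10 and 1.32 for G6pc. Smaller ones were 1.28 for Dnajb9, 1.24 for Dnmt3a, 1.23 for Klf6, 1.18 for Cebpg, 1.16 for Ube3a, 1.15 for Clock and 1.03 for Hlf. The smallest were 0.95 for Hbegf, 0.94 for Slc19a2, 0.86 for Rasl11b, 0.81 for Cnot6l, 0.73 for Rlim, 0.68 for Jarid2 and 0.65 for Kat6a. Where the difference of normal kidney was below 0 it was -3.39 for Apom, -2.94 for Rpl37a, -2.92 for Rps29, -2.79 for Gm12338, -2.65 for Gpx4, -2.18 for Bola2 and -1.97 for Psmb6. These were followed by -1.87 for Slc4a1, -1.86 for Taf10, -1.80 for Psmb3, -1.68 for Hbb-b2, -1.66 for Rpl19, -1.65 for Cst3 and -1.62 for Uqcr11. In the next genes it was -1.52 for Uqcrq, -1.49 for Timm13, -1.41 for Ddt, -1.31 for Col3a1, -1.25 for Ndufb2, -1.18 for Hsd11b1 and -1.16 for Ech1. It was -1.16 for Taldo1, -1.16 for Bst2, -1.11 for Eef1b2, -0.90 for Rps24, -0.89 for Micos13, -0.86 for Ndufa4 and -0.84 for Sin3b. The last were -0.81 for H2ac19, -0.79 for Gstm5, -0.69 for Polr2f and -0.68 for Mrps28. In the remaining genes the sign of the value was opposite to that of the normal difference: -1.07 for Egr1, 1.84 for Mrpl42, 2.07 for Pdia3 and 1.07 for Bpgm.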

How the results depend on the processing

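The count past the threshold, both counts of calls, both contralateral shares and the count that differed between kidney groups kept within their limits (1.5 times for a count, the exact interval for a share) under most alternatives, and 4 values did not. Under median scaling the contralateral share was 18.9% for probe sets called higher and 44.9% for those called lower, and with the offset at the median intensity it was 18.03% for those called higher, where 868 were called lower. Without single arrays the count past the threshold ran from 4597 to 6246, that called higher from 1195 to 1229 and that called lower from 1291 to 1332. The shares ran from 20.8% to 22.7% and from 37.5% to 40.9%, and the count that differed between kidney groups from 4615 to 5756. The normal new array could not be left out, because the comparison has no value without it. Of the 88 named genes that were called, 86 kept the call under median scaling, 82 with the larger offset and 88 with the smaller one, and none of them reversed under any of the 17 alternatives. Sf3b5 (-0.81), Bst2 (-0.79), C1qa (-0.87), Il15 (0.90), Cxcl1 (0.57) and Sin3b (-0.98) missed the 2-fold minimum with the larger offset. The cause was not tested.

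Deviations of same-numbered amplified and unamplified total RNA arrays correlated at 0.097 within normal kidney and at 0.0998 within contralateral kidney. Between kidney groups the correlations ran from -0.07 to 0.04. Whether same-numbered arrays share a mouse cannot be read from these values. With the replicate block 5758 probe sets passed, 1206 were called higher and 1300 lower, and Pdia3 (-0.98) lost its call. The precision is limited by the number of arrays, and whether a dim probe set lay above background is unknown.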

Other observations

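Saa3, an acute phase serum amyloid gene, was picked out after its values were seen and belongs to none of the gene groups. It had 6.98 on the new array of normal kidney against 4.64 and 4.82 on the amplified arrays, a difference of 2.25 ± 0.41. In contralateral kidney it had 8.87 on the new array against 3.85 and 4.79, a difference of 4.55. Unamplified total RNA of normal kidney had 4.93 and 4.80, close to the amplified arrays and within the dimmest of the 5 sets by that level. The filter used a mean that includes the new arrays, so their high signals may have let this gene into the test.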
